A study of Mus musculus with 12 samples.

Results

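The early transcriptional response of wild-type mouse embryonic stem cells to Activin A was measured in 4 poly(A) RNA-seq libraries of a series of 12. The 4 libraries came from the 2 wild-type lines of the 129SvEv strain, numbered 18 and 26. From each line, 1 dish was harvested after 4 h in 10 µM SB431542 (SB below), which blocks the kinase of the type I receptors for Activin, Nodal and TGFβ. Another dish of the same line was washed free of the inhibitor and kept for 3 h in N2B27 medium with 10 ng/ml Activin A. Before SB, all cells had spent 24 h in N2B27 on fibronectin, after growth on gelatin in 2i (inhibitors of MEK and GSK3) plus LIF. The other 8 libraries, 6 h of Activin in the same lines and the same treatments in 2 lines without the ubiquitin ligase Arkadia (lines 25 and 39, "null" below), entered the estimate of the spread. No dish received fresh medium without Activin, so Activin itself, loss of the inhibitor, new medium and the added hours cannot be told apart. Nothing in the labels says how lines 18 and 26 were derived or whether a dish was repeated, and p-values measure only the spread between the libraries of each group. Of 13508 named autosomal genes, 12823 reached 1 FPKM in at least 2 libraries and were tested.

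Activin and its relative Nodal bind pairs of type I and type II receptor kinases, with Cripto (Tdgf1) as a co-receptor for Nodal. The activated receptors phosphorylate SMAD2 and SMAD3, which enter the nucleus with SMAD4 and act on genes together with partners such as FOXH1. Among the known targets are inhibitors of the pathway itself, and in the early embryo the same signal patterns the epiblast and the primitive streak.

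Levels are in FPKM as deposited, that is, scaled to the length of the transcript and the size of the library. A change is given below as the difference in log2(FPKM + 1) between 3 h and SB, which understates the change of low genes. "Rose" and "fell" mean an adjusted p under 0.05 in limma's moderated test with Benjamini-Hochberg adjustment over all genes tested. The levels of the 2 lines correlated at 0.991 in SB and 0.993 at 3 h across genes. Their changes from SB to 3 h correlated at 0.687. Read totals are unknown, but the commonest ratio between low values put the other 3 libraries at 1.03 to 1.22 times the depth of line 18 in SB. The embryonic stem cell marker Pou5f1 stood at 567.5 to 884.2 FPKM in the 4 libraries. Summed over the 5 endoderm markers tested, the level was 7.13 to 10.3 FPKM in all 4 libraries, and over the 10 trophoblast markers 90.3 to 106.5 FPKM. Neural markers (9 tested) summed to 50.2 and 42.2 FPKM in SB and 38.8 and 38.3 FPKM at 3 h. Fibroblast markers (10 tested) summed to 392.9 and 352.6 FPKM in SB and 522.5 and 490.2 FPKM at 3 h. The collagen gene Col1a1 and the proteoglycan gene Dcn did not pass the test (0.29 and −0.29), while Tagln and Pdgfrb rose by 0.78 and 1.19 and Thy1 fell by 0.50. Tagln, a smooth muscle and fibroblast actin-binding protein gene, stood at 206 and 193 FPKM in SB and at 353 and 335 FPKM at 3 h. The part of other cell types in the results was not tested.

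At 3 h, 2882 genes differed from SB, 22.5% of those tested. Of these, 1622 rose (12.6%) and 1260 fell (9.83%). The larger changes were mostly rises: 265 genes rose and 37 fell by more than 2-fold on this scale (2.07% and 0.289% of those tested). With the cell line as a block, which pairs the 2 dishes of a line, 4772 genes were called (2728 rose and 2044 fell). When the libraries were forced to the same distribution (quantile normalization), 1372 genes rose and 1699 fell, so rises went from 56.3% to 44.7% of the calls. Without line 18 the count was 145, and without line 26 it was 135. In those fits each wild-type group holds a single library, so the spread comes from the null lines alone. The remaining wild-type line is assumed to vary like them. Together, 109 rises and 3 falls were called in the fit of both lines and in each of these fits (0.85% and 0.0234% of those tested); such genes are described below as called without either line. Where a locus covered under 0.2 of the annotated gene it is called partial, since its values may not stand for the whole gene.

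**Figure D1:**
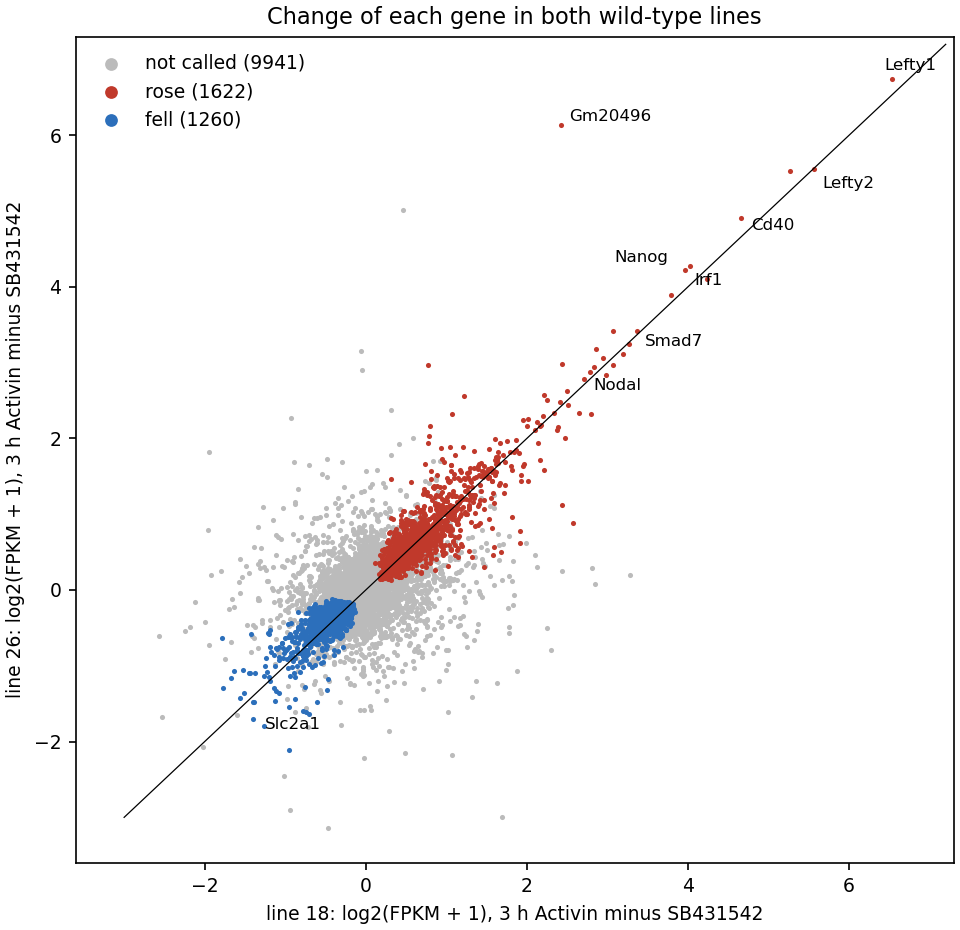
Change of each of the 12823 tested genes at 3 h against SB, in log2(FPKM + 1), in line 18 (horizontal axis) and line 26 (vertical axis). Each point is a gene, with the 1622 that rose in red, the 1260 that fell in blue and the diagonal as a line. The strongest rises lie near the diagonal except Gm20496, and no gene fell as far as the strongest rises rose.

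The 2 LEFTY genes, secreted antagonists of the pathway, went from near 0 to levels above 40 FPKM. Lefty1, which blocks Nodal and its co-receptor, was at 0.0210 and 0.0516 FPKM in SB and at 93.8 and 111 FPKM at 3 h in lines 18 and 26. Lefty2 went from 0.0283 and 0.0696 to 47.8 and 49.3 FPKM. Their log2 changes were 6.64 (SE 0.165) and 5.56 (SE 0.187). The BMP antagonist genes Nog and Grem1 rose by less (0.86 and 1.09), Grem1 at a partial locus. Bambi, a decoy receptor, rose from 6.78 and 7.18 to 15.6 and 15.1 FPKM. Of the 11 antagonists and ligand-binding proteins tested, 5 rose and 1 fell, Tgfbr3 (−1.30, partial locus; 5 and 2 with the block). Fst, the Activin-binding follistatin, did not pass the test (−0.42, adjusted p 0.080) but fell with the cell line as a block (adjusted p 0.014, limma). Fstl3 did not pass the test (0.56).

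Ligand and co-receptor genes rose as well. Nodal went from 7.98 and 7.36 FPKM to 57.5 and 56.6 FPKM, a log2 change of 2.74 (SE 0.096). Tdgf1 went from 13.9 and 16.6 FPKM to 280 and 300 FPKM (4.17), and reads of its pseudogene Tdgf1-ps1 (3.84) may be shared with it. Gdf3, a related ligand, rose by 0.43. Among 8 receptor genes, Acvr1 and Bmpr2 rose (0.44 and 1.00, the latter at a partial locus), and the type I receptor gene for Activin and Nodal, Acvr1b, did not pass the test (−0.21).

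Inhibitory SMADs and corepressors formed the next group. Smad7, which recruits ubiquitin ligases to the receptors, rose from 0.198 and 0.235 to 11.4 and 12.2 FPKM (3.39). Smad6, its counterpart in BMP signalling, rose by 0.83, and the BMP-responsive SMAD genes Smad1 and Smad5 by 0.57 and 0.35. The corepressor genes Skil, Ski and Tgif1 rose by 1.66, 0.67 and 0.34. Skil, which encodes SnoN, a substrate of Arkadia, stood at 10.9 and 11.1 FPKM in SB and at 35.5 and 38.6 FPKM at 3 h. Foxh1, a DNA-binding partner of SMAD2, fell by 0.28. Rnf111 itself, which encodes Arkadia, did not pass the test (−0.08).

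**Figure D2:**
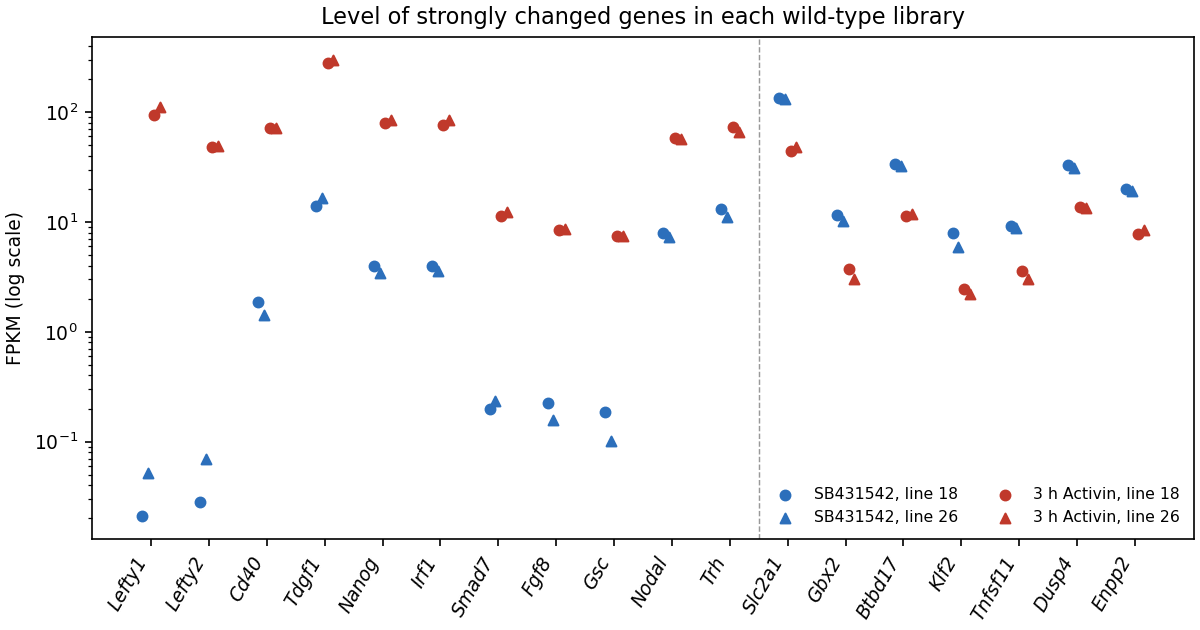
FPKM (vertical axis, log scale) of 11 genes that rose and, right of the dashed line, 7 that fell, in each wild-type library. Blue marks SB and red marks 3 h of Activin, with circles for line 18 and triangles for line 26. For each of these genes both lines in one treatment lie on the same side of both lines in the other. The genes were picked for their large changes, so this follows from the choice.

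Transcription factor genes of the epiblast and the primitive streak made up another group of large rises. Nanog, a pluripotency factor, went from 3.95 and 3.45 to 79.96 and 85.13 FPKM (4.15, SE 0.086). Gsc, the organizer homeobox gene, went from 0.185 and 0.101 to 7.48 and 7.44 FPKM. The T-box gene Eomes rose from 1.19 and 1.20 to 5.489 and 4.999 FPKM, and Brachyury (T) from 0.384 and 0.497 to 2.11 and 1.95 FPKM. In all, 8 of 12 mesendoderm genes tested rose and 0 fell, and 4 of the 8 (Fgf8, Gsc, Wnt3, Eomes) were also called without either line. Among 30 genes with names of the Dlx, Irx, Msx, Nkx and other homeobox families, 9 rose and 2 fell, with Msx1 (2.56), Zfhx3 (1.15, partial locus), Nkx6-2 (1.12) and Six2 (0.93) changing most. Mkx, a tendon homeobox gene, rose by 2.48 and Tcf15, a bHLH factor of the primed epiblast and somites, by 2.16. Tcf15 went from 10.5 and 9.23 to 50.5 and 44.7 FPKM.

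Other signalling pathways changed through particular members. Of 10 FGF ligand and receptor genes, 7 rose and 0 fell. Fgf8 went from 0.225 and 0.156 to 8.42 and 8.65 FPKM and Fgf15 from 1.06 and 0.677 to 14.0 and 14.1 FPKM (3.00 and 3.02), while Fgf4 stood at 9.95 to 10.8 FPKM in all 4 libraries. The ERK feedback genes, usual reporters of FGF activity, gave 2 rises and 5 falls among 21 tested (4 and 6 with the cell line as a block). Dusp4, a phosphatase of ERK, fell from 32.8 and 30.7 to 13.7 and 13.3 FPKM, and Spry4 and Spred1 fell by 0.58 and 0.62. Dusp6 did not pass the test (0.23, adjusted p 0.056, and 0.047 with the cell line as a block).

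In the WNT pathway, the ligand gene Wnt3 rose from 0.311 and 0.290 to 4.62 and 4.57 FPKM and the receptor gene Fzd10 rose by 1.55, among 5 of 19 ligand and receptor genes that rose and 2 that fell. The WNT inhibitor gene Dkk1 rose by 1.68, and of 17 WNT targets and inhibitors 2 rose in all (11.8%, against 12.6% of all genes) and 1 fell, Tnfrsf19 (−0.74). With the cell line as a block 2 rose and 2 fell, as under quantile normalization. The WNT target genes Axin2 and Lef1 did not pass the test (−0.17 and −0.20). In the Notch pathway, 7 of 18 genes rose and 3 fell. The Notch effector gene Hes1 went from 4.72 and 4.09 to 21.2 and 23.2 FPKM (2.10), and the receptor gene Notch3 from 1.06 and 0.849 to 4.44 and 4.86 FPKM. The feedback gene Nrarp and the ligand gene Jag1 rose by 1.496 and 0.73, whereas the ligand gene Dll1 fell by 0.85. Of these, Hes1 and Notch3 were also called without either line. Among BMP targets the ID genes parted: Id1 rose from 12.2 and 11.4 to 41.0 and 46.4 FPKM, while Id3 fell from 74.4 and 75.5 to 43.5 and 48.0 FPKM. Both encode inhibitors of bHLH factors.

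Immune genes stood among the largest rises. Cd40, which encodes a costimulatory receptor of B cells, went from 1.89 and 1.42 to 72.1 and 71.5 FPKM (4.78, SE 0.116). Irf1, a transcription factor of the interferon response, went from 3.99 and 3.61 to 76.9 and 85.3 FPKM (4.10, SE 0.091). Both were called without either line. Irgm1, an interferon-inducible GTPase gene, was at 0.343 and 0.281 FPKM in SB and at 5.80 and 5.45 FPKM at 3 h. Of 19 interferon-stimulated genes tested, 8 rose and 0 fell, with a median of 0.13 against −0.01 over all genes tested. The median was 0.58 without line 26 and 0.11 without line 18. Under quantile normalization 7 rose and 3 fell, and with the cell line as a block 9 rose and 1 fell. The 8 were the immunoproteasome subunit genes Psmb8, Psmb9 and Psmb10 (1.79, 0.70 and 1.21), the ubiquitin-like modifier gene Isg15 (1.56), Dtx3l, Parp9, Gbp2 and Ifi35. At 3 h Isg15 stood at 2.869 and 2.499 FPKM against 0.270 and 0.221 FPKM in SB, and Psmb10 at 45.9 and 41.6 FPKM against 19.3 and 17.5 FPKM. The other members did not pass the test, among them Oasl2 (1.30, adjusted p 0.068, and 0.046 with the block), Stat2 (−0.26) and the antigen presentation genes H2-K1 and B2m (0.02 and −0.13). None of the 8 was called in both fits that left out a line. In the null lines 8 of the 19 changed upward and 10 downward in both lines. Of 17 NF-κB and cytokine genes, Cd40, Irf1 and Nfkbia (0.64) rose, Icam1 (−0.67) and Tnfrsf1a (−0.56) fell, and Nfkb1 and Rela did not pass the test (−0.20 and −0.17). These are 17.65% and 11.76%, near the 12.6% and 9.83% of all genes tested, so this list as a whole did not stand out. Socs1, a brake on cytokine receptors, rose by 1.31, and Stat3 did not pass the test (−0.08).

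The promoters of some of these genes are shown because binding motifs of interferon-responsive factors and of the SMAD partner FOXH1 lie near their starts. Promoter sequences from RefSeq (GRCm38.p6), from 250 bases before to 50 bases after an annotated start, matched 9100 of the 12823 genes by symbol, including 173 of the 265 that rose over 2-fold. Both strands were searched, and overlapping matches are merged in the capitals. The interferon-stimulated response element was searched as GAAA, any 2 bases and GAAA, and stood in 2.79% of all 9100 promoters, in 4.62% of those of genes that rose over 2-fold and in 6 of the 16 matched interferon-stimulated genes (37.5%). The STAT motif was searched as TTCNNNGAA (6.57% of all, 9.25% of the strong risers) and the FOXH1 motif as TGTGNATT (1.93% and 4.05%). The AP-1 motif TGANTCA stood in 4.52% and 10.4%, the TATA box TATAAA in 6.63% and 13.3%, and the palindromic SMAD motif GTCTAGAC in 0.220% and 0%. A match describes letters only and shows no binding. The 120 bases up to the start of 5 genes follow, with 1 motif for each gene in capitals: a FOXH1 motif on each strand in Nanog (chr6:122707369-122707488, plus strand), a STAT motif in Irf1 (chr11:53769894-53770013, plus strand), and response elements in Isg15 (chr4:156200819-156200938, minus strand), Irgm1 (chr11:48871421-48871540, minus strand) and Gbp2 (chr3:142620543-142620662, plus strand). The AP-1 motif also occurs in the Irgm1 and Gbp2 stretches, where it is left in lower case.
Nanog: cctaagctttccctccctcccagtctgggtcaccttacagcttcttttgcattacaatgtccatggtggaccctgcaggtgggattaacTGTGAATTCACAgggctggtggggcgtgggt
Irf1: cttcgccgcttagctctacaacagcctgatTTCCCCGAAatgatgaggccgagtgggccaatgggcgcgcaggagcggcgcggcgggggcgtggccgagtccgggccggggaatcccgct
Isg15: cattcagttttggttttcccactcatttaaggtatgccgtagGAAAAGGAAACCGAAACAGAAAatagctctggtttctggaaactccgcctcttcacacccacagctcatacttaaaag
Irgm1: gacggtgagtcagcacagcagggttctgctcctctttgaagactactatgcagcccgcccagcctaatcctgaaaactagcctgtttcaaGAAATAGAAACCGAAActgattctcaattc
Gbp2: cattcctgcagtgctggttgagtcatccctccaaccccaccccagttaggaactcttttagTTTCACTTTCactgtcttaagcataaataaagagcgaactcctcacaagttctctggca

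Genes of secreted peptides, matricellular proteins and guidance receptors also stood among the rises. Gal and Trh, which encode the neuropeptides galanin and thyrotropin-releasing hormone, went from 0.301 and 0.185 to 9.89 and 11.7 FPKM and from 13.05 and 10.98 to 73.8 and 65.7 FPKM. Ucma, a secreted cartilage protein gene, rose by 2.91. Of 14 YAP target and matricellular genes, 7 rose and 0 fell, among them Ctgf (1.68), a known TGFβ target in other cells, Thbs1 (1.46) and Cyr61 (0.78). Ctgf stood at 6.65 and 5.94 FPKM in SB and at 22.4 FPKM in both lines at 3 h. Among guidance molecules, the receptor genes Epha2 and Unc5b rose by 2.13 and 1.92 and the ligand gene Efna3 by 1.35. In all, 6 of 34 guidance genes rose and 2 fell (6 and 5 with the cell line as a block). These are 17.6% and 5.88%, near the 12.6% and 9.83% of all genes tested, so the list as a whole did not stand out. Epha2 went from 2.80 and 2.22 FPKM to 14.3 FPKM in both lines. Lama5, a basement membrane laminin gene, rose by 1.59.

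Among the 24 tested genes of the immediate early class, 10 were higher at 3 h and 1 was lower (10 and 2 with the cell line as a block). Junb, an AP-1 subunit gene and a known early target of TGFβ, went from 3.23 and 2.99 to 17.4 and 17.6 FPKM (2.17). Btg2, an antiproliferative gene, rose by 1.18 and Jun by 0.63. Fos (partial locus) and Egr1, usual reporters of growth factor stimulation, did not pass the test (0.30 and 0.34).

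A group of 31 genes was under 0.5 FPKM in both SB libraries and at 2 FPKM or more in both 3 h libraries. Besides Lefty1, Lefty2, Smad7, Gal, Fgf8, Ucma, Gsc, Irgm1, Wnt3, Psmb8, Dkk1 and Isg15 it held Cx3cl1, a chemokine gene, Ctsw, a cathepsin gene, Pou4f3, Tmem119, Zbp1 (partial locus) and the non-coding Panct2 and Gm37245. Ephx3 (partial locus) and Gm37245 were listed at 0 FPKM in both SB libraries and stood at 2.99 and 3.49 FPKM and at 5.94 and 3.99 FPKM at 3 h. The locus was partial in 9 of the 31. Of the 31, 19 were also called without either line. These genes passed the filter through their 3 h levels, so that they rose follows in part from how they were chosen. Gm20496, an antisense gene over Psmb8, was at 14.3 and 0 FPKM in SB, and its rise (4.28) had an SE of 0.972 against 0.165 for Lefty1.

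Some genes that rose over 2-fold lie next to each other, a pattern chosen after its values were seen. Of 8196 pairs of tested genes next to each other with under 50 kb between them, 26 pairs had both members rise over 2-fold, in 7 of which the loci overlap and may share reads. Tmem63a, which starts 3904 bases after the end of Lefty1 (chromosome 1, 180934985 to 180938453, mm10), went from 0.157 and 0.231 to 1.85 and 1.89 FPKM (1.27). Its adjusted p was 0.066 without line 18 and 0.057 without line 26 (limma). The use of strand in the counting is not given in the sources used here. Other examples without overlap are Agrn and Isg15 (1.05 and 1.56), Notch3 and Ephx3 (1.53 and 2.08), Fzd10 and the non-coding 5930412G12Rik (1.55 and 1.86), Krt17 and Krt42 (1.81 and 1.12), and Prrx2 and Ptges (1.32 and 1.41). Psmb8 and Tap2 (1.79 and 1.27) also stand next to each other. Ephx3 and Tap2 were measured at partial loci.

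**Figure D3:**
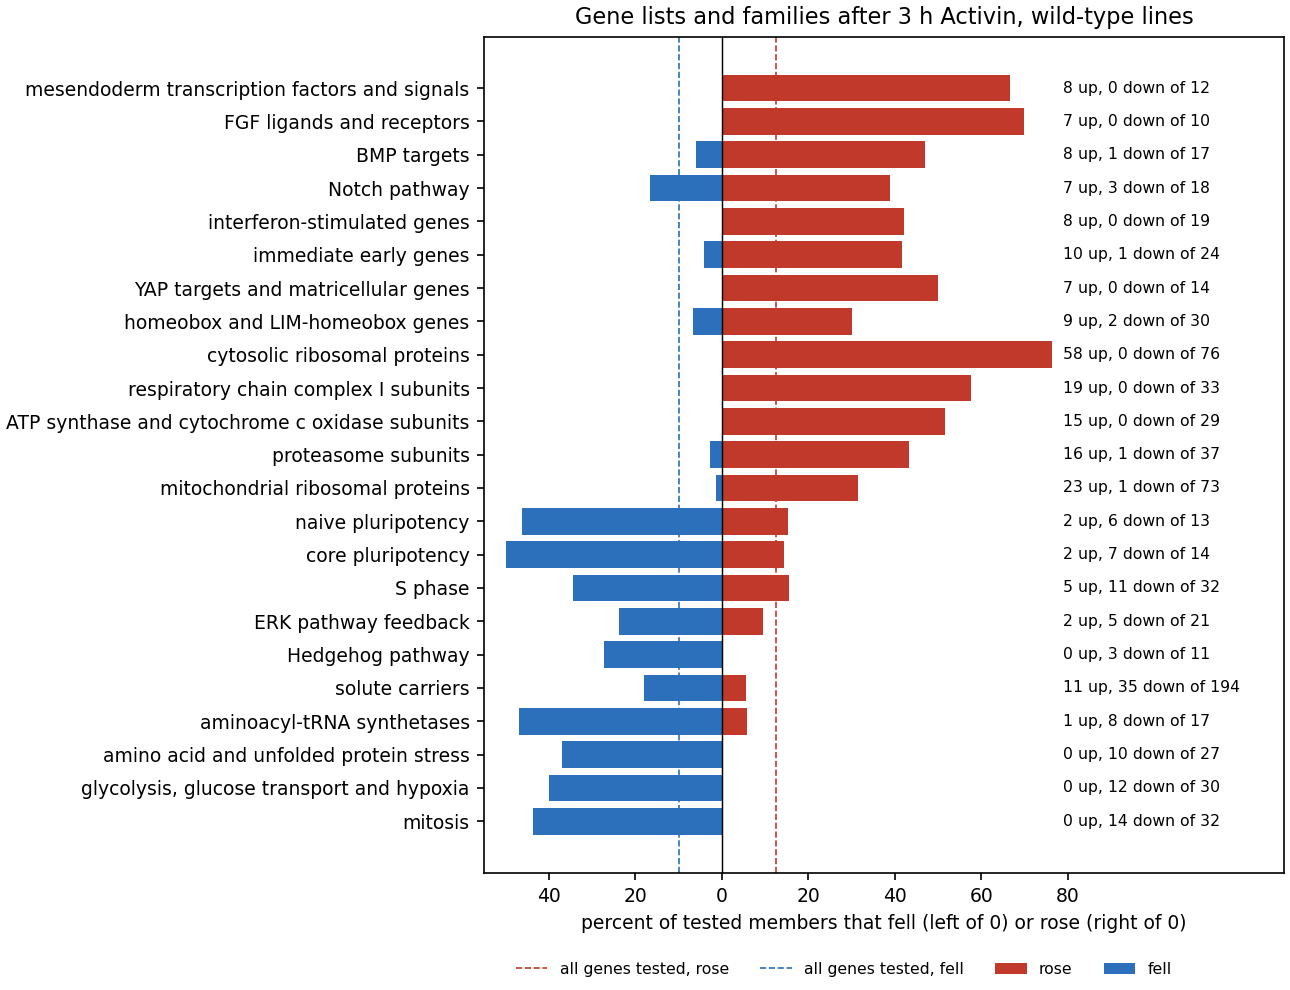
Percent of the tested members of 23 gene lists and families that rose (red, right of 0) or fell (blue, left of 0) at 3 h, with the counts printed beside each bar. Dashed lines mark the shares over all genes tested, 12.6% rising and 9.83% falling; FGF, mesendoderm and ribosomal protein genes had no falling member, and the glycolysis and mitosis lists had no rising one.

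Falls were smaller than rises, and the lists for glycolysis, amino acid stress, naive pluripotency and mitosis held more falls than rises. Slc2a1, the main glucose transporter gene of proliferating cells, went from 133 and 131 to 44.7 and 48.0 FPKM (−1.49, SE 0.076). Of 30 glycolysis, glucose transport and hypoxia genes, 12 fell and 0 rose, with a median of −0.22. Pdk1, a kinase that holds pyruvate back from the mitochondria, fell from 30.3 and 30.4 to 17.7 and 19.8 FPKM. The lactate exporter gene Slc16a3, the glucose transporter gene Slc2a3 and the glycolytic enzyme genes Aldoa and Eno1 fell by 0.63, 0.48, 0.50 and 0.25. Aldoa stood at 633 and 548 FPKM in SB and at 421 and 408 FPKM at 3 h. Hif1a, which encodes the hypoxia factor, and the oxygen sensor gene Egln3 did not pass the test (−0.21 and −0.11). Hif1a had an adjusted p of 0.058, and of 0.026 with the cell line as a block (limma). Slc2a1 was the one member of this list called without either line.

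Genes of the response to amino acid shortage and unfolded proteins fell in 10 of 27 cases and rose in 0. Chac1, a glutathione-degrading enzyme gene, fell by 0.78, the amino acid transporter gene Slc38a2 by 0.65 and the folding factor gene Pdia4 by 0.41, while Atf4 and Hspa5 did not pass the test (−0.18 and −0.08). Atf4 had an adjusted p of 0.28, and of 0.0075 with the cell line as a block (limma). Of 17 cytosolic aminoacyl-tRNA synthetase genes 8 fell, by 0.26 to 0.37, and 1 rose (Dars, 0.33). Among 194 solute carrier genes 35 fell and 11 rose (47 and 19 with the cell line as a block). Besides the glucose transporters, Slc28a1, a nucleoside transporter gene, and Slc39a14, a metal transporter gene, fell by 0.92 and 0.84, and Slc6a15, a neutral amino acid transporter gene, rose by 2.26. The metal-binding metallothionein genes Mt1 and Mt2 fell from 249.4 and 225.9 to 172 and 171 FPKM and from 298 and 282 to 201 and 217 FPKM.

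In the cell cycle, 14 of 32 mitosis genes fell and 0 rose, by at most 0.48 (Plk1). Aurkb, Ccna2 and Bub1b fell by 0.47, 0.27 and 0.41, while Top2a and Cenpe did not pass the test (−0.19 and −0.16). Of 32 S phase genes 11 fell and 5 rose, the origin licensing genes Cdc6 and Cdt1 falling by 0.47 each and the cyclin gene Ccne2 rising by 0.53. The cell cycle inhibitor gene Cdkn1a rose by 0.64. Of 19 cell cycle regulator genes tested, 1 rose and 4 fell (4 and 4 with the cell line as a block). These are 5.26% and 21.05%, against 12.6% and 9.83% of all genes tested. With the cell line as a block, 4 mitosis genes rose and 17 fell, and 11 S phase genes rose and 13 fell. Without either line none of these genes was called.

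Pluripotency genes split. Of 13 naive pluripotency genes, 6 fell and 2 rose, Nanog and Tbx3 (1.33, partial locus). Gbx2, a homeobox gene of naive cells, went from 11.5 and 10.1 to 3.72 and 3.00 FPKM (−1.44), and Klf2 from 7.88 and 5.90 to 2.43 and 2.21 FPKM (−1.24). Zfp42 (Rex1) fell from 75.2 and 76.6 to 45.5 and 42.3 FPKM. Among 14 core pluripotency genes 7 fell and 2 rose. Sox2 fell from 44.2 and 39.8 to 26.1 and 25.4 FPKM, whereas Pou5f1 rose from 601 and 567 to 884 and 843 FPKM (0.56). The list for the formative and primed epiblast held 5 rises and 7 falls among 22 genes tested, with a median of −0.17. Besides Tcf15 and Fgf15, the rises were Fgf5, Otx2 and Myc (0.49, 0.31 and 0.51), and the falls included Zic2, Mycn and the DNA methyltransferase gene Dnmt3b (−0.62, −0.55 and −0.28). Of 9 neural markers, 2 rose, Nkx6-2 and the neural progenitor filament gene Nes (1.12 and 0.48), and 2 fell, Sox1 (partial locus) and the tubulin gene Tubb3 (−0.87 and −0.45), with 2 rising and 4 falling under the block. Apart from Nanog and Tdgf1, no gene of the naive or core lists was called without either line.

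Among the other named falls were Btbd17 (−1.43), Tnfsf11 (RANKL, a TNF family ligand gene), Myb (a haematopoietic transcription factor gene), Enpp2 (autotaxin, which makes lysophosphatidic acid), Enpp3, Gprc5c, G0s2, Cldn5, Myd88 and Osbpl10. Btbd17 went from 33.8 and 32.1 to 11.3 and 11.9 FPKM. Tnfsf11 went from 9.10 and 8.80 to 3.58 and 3.01 FPKM and Enpp2 from 19.8 and 19.1 to 7.84 and 8.50 FPKM. Slc2a1, Tnfsf11 and Enpp2 were the 3 falls called without either line. The locus was partial for 5 of the 25, among them Boc, Runx1t1 and Myo5b. Hedgehog genes, which include the co-receptor Boc, fell in 3 of 11 cases and rose in 0 (5 and 0 with the cell line as a block), and the target gene Ptch1 did not pass the test (−0.29, adjusted p 0.051, and 0.037 with the block).

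Genes of the ribosome and of respiration rose by modest amounts from high levels. Of 76 cytosolic ribosomal protein genes, 58 rose and 0 fell, with a median of 0.55. Rpl41 went from 4146 and 3662 to 6713 and 6722 FPKM, and of the 10 largest rises in FPKM 7 were Rpl and Rps genes, besides Ppia, Phospho2 and the pseudogene Rpl39-ps. Ribosomal protein genes made up 16.0% and 15.3% of the summed FPKM in SB and 18.8% and 18.3% at 3 h, and 32.3% and 31.8% of the gain in summed FPKM of the genes tested. They have many near-identical pseudogenes, so single members are uncertain. Of 33 complex I subunit genes 19 rose and 0 fell, of 29 ATP synthase and cytochrome c oxidase subunit genes 15 and 0, of 37 proteasome subunit genes 16 and 1, and of 73 mitochondrial ribosomal protein genes 23 and 1. With the cell line as a block, 28 proteasome genes rose and 2 fell, and 52 mitochondrial ribosomal protein genes rose and 3 fell. No member of these 5 families was called without either line, Psmb8 being called without line 18 alone. Under quantile normalization 26 ribosomal protein genes rose and 4 fell, with a median of 0.11, and 8 proteasome genes rose and 5 fell, with a median of 0.03. In that setting Rpl32, Ppia and Rpl39-ps, among the 10 largest rises in FPKM, had changes below 0.

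These families are short genes at high levels, and both features moved with the change. The median change was 0.25 over the 680 genes with up to 1 kb of exons, 0.13 for 1 to 2 kb and −0.06 over the 2021 genes with more than 8 kb. It was 0.47 over the 229 genes with a mean above 500 FPKM in the series and −0.08 for 5 to 20 FPKM. The summed FPKM of all loci was 578104 and 584627 in SB and 710393 and 721405 at 3 h. With the trend on exonic length removed, an alternative added after the data were seen, 54 ribosomal protein genes rose and 0 fell, with a median of 0.39. The part of length, level and summed FPKM in these rises was not tested further.

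**Figure D4:**
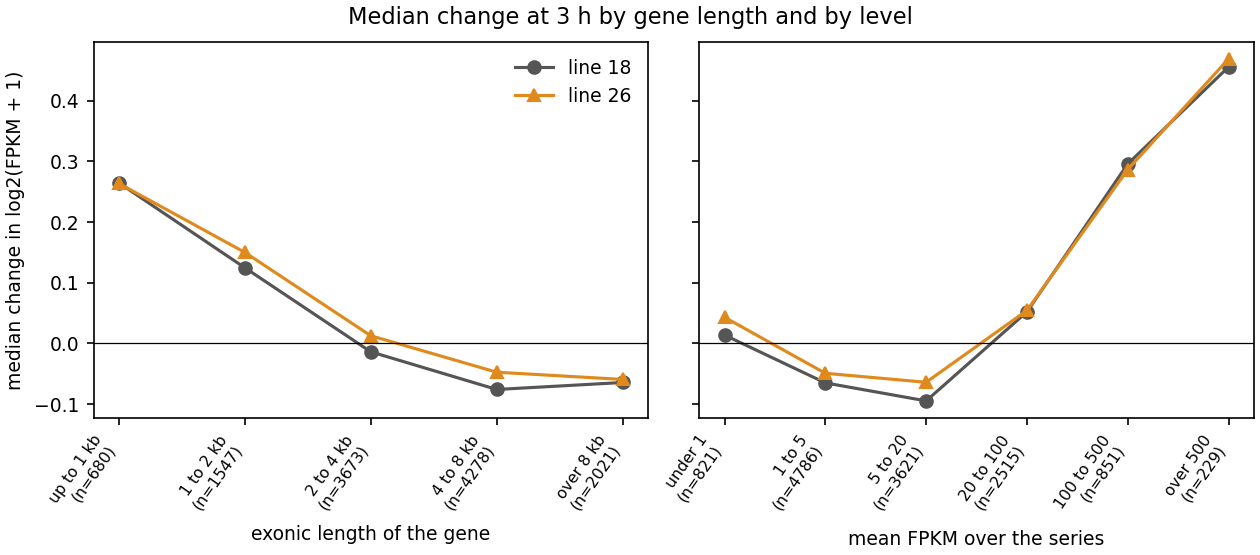
Median change in log2(FPKM + 1) at 3 h (vertical axis) of the tested genes binned by exonic length (left) and by mean FPKM over the series (right), with the number of genes under each bin and a line for each cell line. The medians of lines 18 and 26 lie close together, falling with length and highest for genes over 500 FPKM.

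By annotated type, 1373 of 10970 protein-coding genes rose and 1173 fell (12.5% and 10.7%, against 12.6% and 9.83% of all genes tested). Among 314 lincRNA genes 48 rose and 6 fell (15.3% and 1.91%). Among 349 antisense genes 38 rose and 11 fell (10.9% and 3.15%), so their share of rises was below that of all genes. The median change was 0.17 for lincRNA, 0.08 for antisense and −0.02 for protein-coding genes. Without known strand, reads of an antisense gene and of its partner cannot be told apart.

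The null lines have their own SB and 3 h libraries, in which 834 genes rose and 915 fell (6.5% and 7.14% of those tested). Of the 2882 genes called in wild-type lines, 2682 (93.1%) changed with the same sign in both null lines, against 63.9% of all genes tested. All 25 of the largest rises were also called in the null lines, 24 of them with a smaller change. Of the 25 largest falls, 18 had the same sign in both null lines and 16 were called there. The difference between rises and falls in this was not tested. Of the genes that changed over 2-fold, 248 of 265 rises (93.6%) and 25 of 37 falls (67.6%) had the same sign in both null lines. The median of the 265 strong risers was 1.35 in wild-type and 1.06 in null lines. Since the genes were chosen for their change in wild-type lines, a smaller value elsewhere follows in part from that choice. Gal had the widest gap among the 25, with 3.24 in wild-type and 0.83 in null lines. No gene passed the test of the difference between genotypes (limma, 0 genes at an adjusted p under 0.05 and 654 at an unadjusted p under 0.05, and 3 genes called with the cell line as a block). An unadjusted threshold of 0.05 would pass about as many of the 12823 genes if none differed.

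From 3 to 6 h, 168 genes fell and 157 rose in wild-type lines (1.31% and 1.22% of those tested; 852 genes in all with the cell line as a block, and 0 without line 18 or without line 26). This comparison shares the 3 h libraries with the one above, so the 2 sets of values are not independent. Lefty1 and Lefty2 were lower at 6 h than at 3 h by 1.30 and 1.28 log2 units, and Gsc, Cd40 and Id1 by 1.46, 1.29 and 1.76. Nodal, Tdgf1, Trh and Ucma did not pass the test between 3 and 6 h (0.12, −0.27, 0.40 and 0.44). The interferon-stimulated genes Psmb8, Parp9, Gbp2 and Ifi35 were higher at 6 h by 0.86, 1.02, 0.78 and 1.06. Isg15, Dtx3l, Psmb9 and Psmb10, which had also risen at 3 h, did not pass this test (−0.25, −0.41, 0.26 and 0.425). Tnfsf11 and Myb rose again by 0.75 and 0.89.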

How the data were processed

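Poly(A) RNA of 12 cultures was primed with random hexamers and sequenced as 50 bp single reads, per the labels' protocols. The authors' deposited table gives FPKM per locus on mm10, per the submitters' processing notes, with a status per value, per the file headers. For the aligner, the quantifier and the use of strand the entry is "not given in the sources used here", and read depth is unknown, so no interval for counting error is given.

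Of 17446 loci, 2666 without a name were kept apart and 27 with a status other than OK were left out. The locus with the highest mean was kept for each name, which left 13508 genes. Genes with at least 1 FPKM in at least 2 libraries (12823) were tested as log2(FPKM + 1) in limma 3.58.1 (R 4.3.3), with 12 libraries in 6 group means, a variance trend and two-sided p-values with Benjamini-Hochberg adjustment. Libraries of the same number come from the same cell line, which pairs SB with 3 h. The deviations of line 18 from the group means correlated at 0.017 to 0.054 between treatments, and the main model had no block. Gene extents were taken from GENCODE, which matched 95.3% of the genes by name.

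Genes were named by rule: the 25 largest rises (at least 5 FPKM at 3 h) and falls (at least 5 FPKM in SB), the 10 largest differences in FPKM each way, genes under 0.5 FPKM in both SB libraries and at 2 FPKM or more at 3 h, and members of gene lists and families. The members and lists were chosen with earlier results of these data known. The model was tested on simulated data for the comparison of 3 h with SB over 12823 genes. It recovered 81 of 100 genes changed by a log2 of 1 and 42 of 100 changed by 0.5, with 9 false calls. No other gene was changed there, and the noise was independent between libraries, without effects of line, length or summed FPKM. These figures therefore describe that setting and not the calls above. Alternatives covered the filter, pseudocount, scaling, block, libraries in the fit, variance trend and each line left out. A few genes that the rule names are not reported here.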

Additional observations from a re-analysis of the deposited data

Results flagged for a closer look

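The authors' table holds 2275 tested loci without a gene name, which stood outside the comparisons above, and 87 of them were called at 3 h against SB (57 rose and 30 fell, limma on these loci alone). The 8 that rose by more than 1.5 log2 units are given here because they show a signal above SB in data not otherwise used. A locus on chromosome 3 (87891090 to 87891423, mm10), overlapping no annotated gene, went from 1.20 and 0.785 to 17.9 and 14.5 FPKM, a log2 change of 3.11. A locus on chromosome 16 (48303785 to 48304302) within Dppa2, a pluripotency gene, rose by 1.72, from 0.30 and 0.25 to 3.23 and 3.13 FPKM. The named Dppa2 locus was at 22.9 and 24.3 FPKM in SB and at 34.9 and 33.2 FPKM at 3 h. Its change of 0.51 did not pass the test (adjusted p 0.13, and 0.0011 with the cell line as a block, limma). Loci on chromosome 1 at 192778247 to 192778829 and 192780346 to 192780714, with no annotated gene, rose by 1.69 and 1.55. A locus on chromosome 17 (22710429 to 22716116) rose by 1.65, from 3.46 and 3.51 to 13.2 and 13.0 FPKM. Loci on chromosome 14 (34362137 to 34362759), chromosome 13 (44010589 to 44010914, overlapping Gm33489) and chromosome 19 (44685751 to 44687967, overlapping Gm26644) rose by 1.63, 1.56 and 1.52. In each of the 8 both 3 h libraries lay above both SB libraries, which follows in part from how they were chosen.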

How the results depend on the processing

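With the cell line as a replicate block, 4772 genes were called at 3 h (2728 rose, 2044 fell), 852 between 3 and 6 h, and 3 for the difference between genotypes. With the 3 wild-type groups alone 4374 were called (2576 rose), and with the compared groups alone 96 between 3 and 6 h. The genotype difference had 2 calls under quantile normalization and 1 with the length trend removed. Leaving out 1 of the 4 lines gave 135 to 4363 calls (124 to 2579 rises and 7 to 1788 falls), and 0 to 461 between 3 and 6 h. The counts above 4000 came without null line 25 or 39, and the counts of 145 and 135 and those of 0 came without wild-type line 18 and 26. Quantile normalization turned Ppia (−0.065), Rpl32 (−0.0076) and Rpl39-ps (−0.029). The cause of these changes was not tested. The other settings kept the counts within 1.5 times. The Cdyl call, a fall of 0.80, was lost under the block (adjusted p 0.056), and the named genes that gained a call under it are given above with both p-values or with their list. The block leaves each log2 change as it was and alters only its p-value, so it could not turn a gene's direction.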

Other observations

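Loci on the X chromosome carry no gene name in the table and are 1258 of the 2275 unnamed loci tested. Of these, 36 were called at 3 h, 11 rising and 25 falling. Among all 2275 unnamed loci tested, 87 were called, 57 rising and 30 falling. Several falling loci lie within the same gene, as in Tfe3 and Lpar4, so the counts are of loci and not of genes. The locus within Tsc22d3, a leucine zipper gene known to respond to glucocorticoids, rose by 1.35, and 3 separate loci within the corepressor gene Bcor rose by 1.07, 0.98 and 0.73. The locus within Ccdc160 went from 12.9 and 14.3 to 4.73 and 5.78 FPKM (−1.22), and loci within Sox3 and Pim2 also fell (−1.07 and −0.90).

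Other gene groups are given here beside the shares over all genes tested, 12.6% rising and 9.83% falling. Rises and falls were 26.7% and 10% of the actin and contractile genes and 30.4% and 17.4% of the p53 targets. They were 13.8% and 3.45% of the collagen, laminin and integrin genes, 26.1% and 0% of the histone genes, and 13.3% and 0% of the germline markers. Of 30 actin and contractile genes 8 rose and 3 fell (11 and 6 with the cell line as a block), and of 23 p53 target genes 7 rose and 4 fell, the stress genes Gadd45b and Gadd45g in opposite directions (0.52 and −0.89). Of 29 collagen, laminin and integrin genes 4 rose and 1 fell (6 and 2 with the block), the fibronectin receptor gene Itga5 rising by 0.97 and the laminin receptor gene Itga6 falling by 0.71. Of 23 imprinted genes 0 were called by limma at an adjusted p under 0.05 and 2 (Gnas, partial locus, and Cdkn1c) at an unadjusted p under 0.05, and with the cell line as a block 2 rose, Cdkn1c among them, and 7 fell. Of 23 histone genes 6 rose and 0 fell (8 and 2 with the block), and of 15 germline markers Prdm1 (1.89, partial locus) and Nanos3 (0.95) rose (5 with the block).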
